A study of Homo sapiens with 6 samples.

Results

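Transcripts annotated as targets of nonsense-mediated mRNA decay (NMD) were examined in A549 cells, an established line from a human lung adenocarcinoma. A transcript was taken when its type in the GENCODE annotation of GRCh37 is nonsense_mediated_decay and its mean over the 6 libraries was 0.5 FPKM or more (fragments scaled to transcript length and to library depth). Of 180253 transcripts listed, 13306 had this type and 3718 of them met the minimum. In short-read RNA-seq of 2 libraries a group, cells that received the control siRNA si-ctrl were compared with cells that received si-PLANE.1 or si-PLANE.2, siRNAs against the long non-coding RNA PLANE, all at 48 h after transfection. PLANE itself was not analysed here, so its knockdown is not checked by these values. The labels do not say whether the 2 libraries of a group came from separate cultures, so p-values measure only the spread between these libraries.

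NMD is a surveillance pathway that degrades mRNAs on which a ribosome stops too early. Splicing leaves an exon junction complex just upstream of each junction, and a ribosome that terminates well before the last junction leaves such a complex in place, where UPF1, UPF2 and UPF3 join it and the SMG proteins direct cleavage and decay. Many genes of RNA-binding proteins splice in a so-called poison exon with a stop codon, and lower their own output by this route. The annotated type is a prediction from the position of the stop codon and not a measurement of decay.

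The stop codon and the coding bases before it define these transcripts, and they are printed here for 13 of the transcripts on which the results turn. Each sequence holds the last 60 spliced coding bases from GENCODE (GRCh37), 5′ to 3′ on the strand of the gene, with the stop codon in capitals. In B2M-209 and HNRNPA1-205 the stop codon is the one that protein_coding transcripts of the gene also use, and introns follow it.
B2M-209: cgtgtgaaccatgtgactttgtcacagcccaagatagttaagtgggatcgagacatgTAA
HNRNPA1-205: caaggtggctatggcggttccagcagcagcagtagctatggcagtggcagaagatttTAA
In the next 6 transcripts all 60 bases are coding in some protein_coding transcript of the gene, although none of those transcripts stops there. UGDH-203 and SMG1-213 are read on the minus strand.
RPS3-218: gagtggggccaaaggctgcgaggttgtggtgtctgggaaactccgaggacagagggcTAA
PGD-204: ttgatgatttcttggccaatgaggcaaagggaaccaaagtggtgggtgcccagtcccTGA
ACADVL-237: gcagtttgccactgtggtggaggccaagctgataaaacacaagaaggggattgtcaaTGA
UGDH-203: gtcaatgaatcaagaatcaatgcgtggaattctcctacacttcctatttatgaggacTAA
LDHA-218: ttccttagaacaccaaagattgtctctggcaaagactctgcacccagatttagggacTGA
SMG1-213: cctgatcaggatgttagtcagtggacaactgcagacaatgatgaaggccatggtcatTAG
The last 5 transcripts end in bases that no protein_coding transcript of the gene translates, which make up 11 of the 60 bases in RACK1-224, 20 in DSTN-202, 34 in SRSF3-203 and all 60 in SRSF6-202 and TRA2B-205.
RACK1-224: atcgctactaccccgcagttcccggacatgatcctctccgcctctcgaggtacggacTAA
DSTN-202: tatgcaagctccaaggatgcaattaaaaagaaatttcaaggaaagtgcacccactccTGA
SRSF3-203: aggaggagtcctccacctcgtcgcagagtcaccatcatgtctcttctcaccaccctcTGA
SRSF6-202: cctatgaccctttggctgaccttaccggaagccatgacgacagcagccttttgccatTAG
TRA2B-205: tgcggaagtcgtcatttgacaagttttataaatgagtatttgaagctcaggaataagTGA
The stop codon of SRSF3-203 is at chr6:36567629-36567631 in exon 4 of 7, that of SRSF6-202 at chr20:42087942-42087944 in exon 3 of 7, and that of TRA2B-205 at chr3:185649560-185649562 in exon 2 of 10, on the minus strand. Of transcripts that fell in si-PLANE.2, the stop codon of PGD-204 is at chr1:10460538-10460540 in exon 3 of 5 and that of ACADVL-237 at chr17:7127962-7127964 in exon 8 of 10. B2M-209 stops at chr15:45008538-45008540 in exon 3 of 5, and RACK1-224 at chr5:180670681-180670683, on the minus strand, within exon 1 of 8.

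The position of the stop codon was known for 3716 of the 3718 transcripts. It lay a median of 349 bases before the last junction (quartiles 165 and 754.5, lowest 50), with a median of 3 junctions after it. In 2078 transcripts (55.9%) the stop lay within an exon of a protein_coding transcript of the gene but was not a stop codon of one, in 1229 (33.1%) it lay outside such exons, and in 409 (11%) it was the stop codon of a protein_coding transcript. The transcripts with a shared stop codon were fewest but held 23.1% of the summed FPKM, against 51.6% and 25.3% for the other classes. The start of the coding sequence or of the mRNA is annotated as not found in 856 transcripts.

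Most NMD transcripts were scarce and came from genes with a single one. They belonged to 2716 genes, of which 2015 held 1 such transcript, 504 held 2 and 197 held 3 or more. The median level was 1.49 FPKM (quartiles 0.82 and 3.44), 302 transcripts reached 10 FPKM and 15 reached 100 FPKM. Values differed more between replicates than those of protein_coding transcripts of the same minimum. The median absolute log2 ratio between the 2 libraries of a group, on FPKM plus 0.1, was 0.70, 0.64 and 0.52 in si-ctrl, si-PLANE.1 and si-PLANE.2 for NMD transcripts and 0.40, 0.41 and 0.27 for protein_coding transcripts. In all, 1929 NMD transcripts (51.9%) were above 0 in every library, against 68.9% of protein_coding transcripts. Those just inside the minimum were CEP97-203 (0 to 1.72 FPKM) and PLEKHM1-207 (0 to 0.86 FPKM), and just outside it lay 1 transcript of EIF3G (0 to 1.9 FPKM) and 1 of MTBP (0.01 to 1.01 FPKM).

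Libraries held 10572151 to 20778431 expected counts, lowest in si-PLANE.1 and highest in si-PLANE.2. Of 15 A549 marker genes, 13 were at 1 FPKM or more in every library, the surfactant genes SFTPB and SFTPC being the exceptions, while the leukocyte marker PTPRC did not exceed 0.02 FPKM. The 5 leukocyte markers summed to 4.59 to 10.4 FPKM, the 5 fibroblast markers to 3.8 to 20.7 FPKM and the 2 endothelial markers found to at most 0.59 FPKM. Histone mRNAs, which lack a poly(A) tail, set the si-PLANE.2 libraries apart. The median of 10 such genes was 216 and 289 FPKM in si-ctrl, then 142 and 197 FPKM in si-PLANE.1, and only 3.06 and 2.26 FPKM in si-PLANE.2. Both poly(A) isolation and rRNA removal are named in the methods, without saying which library had which, so whether a value of si-PLANE.2 goes with the siRNA or with how its libraries were made cannot be told apart in any comparison below.

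NMD transcripts made up a minor share of the output of the genes that carry them, and the share was lower in si-PLANE.2 than in si-ctrl. They held 11.2% and 10.3% of the summed FPKM of their 2716 genes in si-ctrl, 12.8% and 10.7% in si-PLANE.1, and 8.57% and 8.63% in si-PLANE.2. The si-PLANE.2 libraries lay below all others, while the si-PLANE.1 and si-ctrl libraries overlapped. The difference from si-ctrl (10.8% ± 0.67, SD, n = 2) was 1.04 percentage points in si-PLANE.1 (11.8% ± 1.48, SD, n = 2; exact permutation test, two-sided, p = 0.667) and -2.16 percentage points in si-PLANE.2 (8.60% ± 0.04, SD, n = 2; exact p = 0.333, the smallest that 2 libraries against 2 allow). Without replicate 1 of si-PLANE.1 the first difference was -0.01 percentage points. B2M differed severalfold between replicates. Without B2M the shares were 9.87% and 9.84% in si-ctrl, 10.8% and 10.3% in si-PLANE.1, and 8.13% and 8.21% in si-PLANE.2, and the 3 groups no longer overlapped. The median share over genes gave the same order, at 9.57% and 9.06%, 10.4% and 10.1%, and 7.95% and 8.29%. This order ran opposite to that of the total expected counts of the groups. The part of depth in it was not tested. Per transcript tested, the median log2 change of share within the gene in si-PLANE.2 was -0.14 for NMD transcripts and -0.12 over all transcripts. The lower share in si-PLANE.2 is therefore not read as particular to NMD transcripts. In bulk RNA, fewer cells that express a transcript and less of it per cell cannot be told apart.

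**Figure D1:**
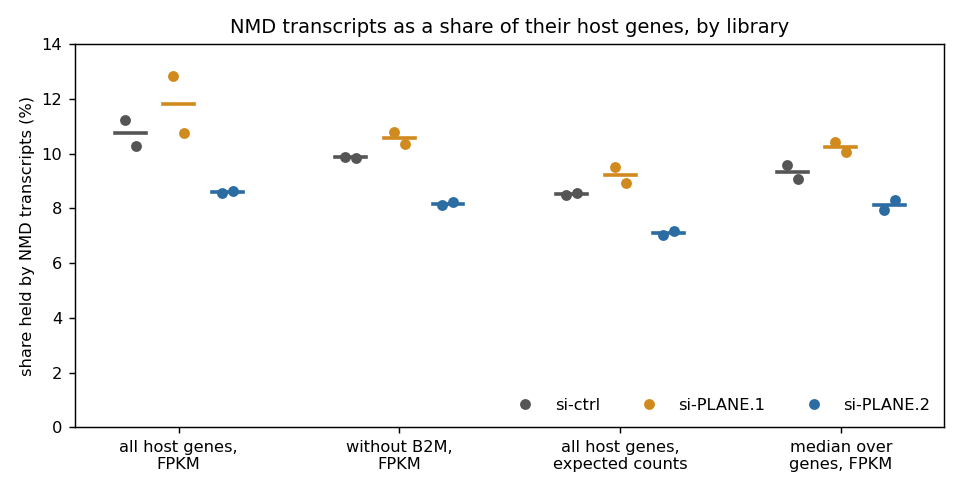
Share of the host genes held by NMD transcripts (y axis, %) in each library (points) and the mean of each group (bars), for 4 ways of computing it along the x axis. The si-PLANE.2 points lie lowest in each of them, at 8.57% and 8.63% for all host genes in FPKM, and the si-PLANE.1 and si-ctrl points overlap in that first set alone.

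Few genes carried much of this output. B2M alone held 9.05% of the summed FPKM of NMD transcripts, the first 12 genes held 25.5%, and 117 genes held 50%. By their own share the genes differed widely, with a median of 10.5% (quartiles 4.65% and 22.7%). In 735 genes NMD transcripts held under 5% of the FPKM, and in 168 they held 50% or more, of which 73 had a mean of 10 FPKM or more. For 34 genes the NMD transcripts were all the transcripts listed, so that their share is fixed at 100%.

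**Figure D2:**
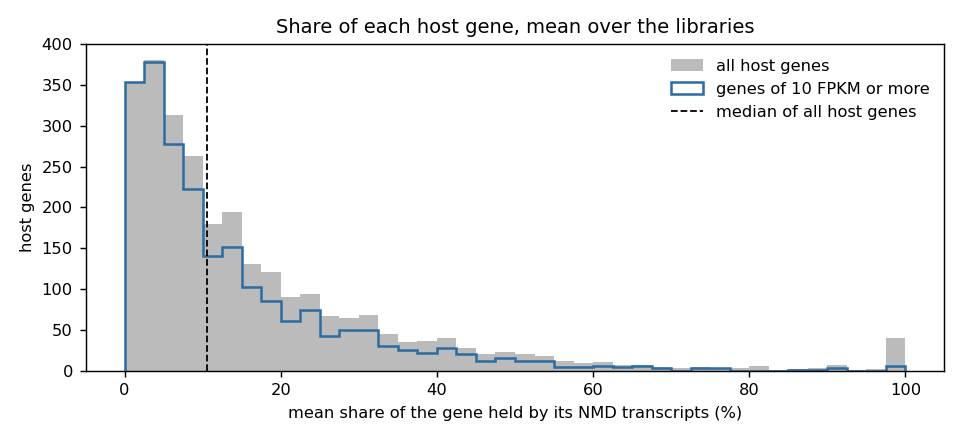
Number of host genes (y axis) by the mean share of their FPKM held by NMD transcripts (x axis, %), for all 2716 genes (grey) and for genes of 10 FPKM or more (blue line). Most genes lie at low shares, with the median at 10.5% (dashed), and a small peak at 100% holds, among others, the 34 genes whose listed transcripts are all of the NMD type.

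Among genes of 10 FPKM or more with the largest shares were several of that kind, such as the readthrough gene HNRNPUL2-BSCL2, whose exons are also those of its neighbours. COX6C and B2M stood beside them. In COX6C, a subunit of cytochrome c oxidase, NMD transcripts held 90.4% to 96.0% of the FPKM. In B2M, the light chain of MHC class I, they held 93.9% and 95.7% in si-ctrl, 94.5% and 94.5% in si-PLANE.1, and 86.2% and 86.6% in si-PLANE.2. Most of this was B2M-209, at 2349 and 810 FPKM in si-ctrl, at 3513 and 702 FPKM in si-PLANE.1, and at 710 and 673 FPKM in si-PLANE.2. The first si-ctrl and the first si-PLANE.1 library stood apart from the others, and neither siRNA changed it past the threshold (edgeR adjusted p = 0.999 and 0.286). It is 604 bases long and in the annotation uses the normal stop codon of the gene, as do COX6C-207, HNRNPA1-205, POLR2L-202 and ACTG1-213 among the first 12. A B2M transcript without a type in the annotation, at 31.4 to 202 FPKM, counts here as not of the NMD type. The protein_coding B2M-205 was at 1 to 5 FPKM. The B2M shares therefore depend on the types given and do not measure how much B2M mRNA is decayed.

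RPS3 and RACK1, 2 proteins of the small ribosomal subunit, came next. RPS3-218 was at 557 and 745 FPKM in si-ctrl, at 459 and 608 FPKM in si-PLANE.1, and at 401 and 428 FPKM in si-PLANE.2. It held 39.4% to 42.6% of its gene in si-ctrl and si-PLANE.1 and 19.7% and 22.1% in si-PLANE.2, a difference in share that did not pass (adjusted p = 0.139). RACK1-224 was at 379 and 561 FPKM in si-ctrl, at 386 and 414 FPKM in si-PLANE.1, and at 157 and 169 FPKM in si-PLANE.2. It fell with si-PLANE.2 by 1.23 on the log2 scale (SE 0.22, edgeR adjusted p = 0.0292), and its share of RACK1 went from 44.7% and 49.996% in si-ctrl to 6.14% and 6.75% (adjusted p = 1.02e-05). A second NMD transcript of the gene, RACK1-210, went the other way, from 8.74 and 15.4 FPKM in si-ctrl to 359 and 378 FPKM in si-PLANE.2 (log2 fold change 5.23, SE 0.35, edgeR adjusted p = 0.00678).

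The remaining genes of the first 12 also split by direction in si-PLANE.2. POLR2L-202, from a small subunit shared by RNA polymerases, rose from 96.6 and 115 FPKM to 438 and 412 FPKM (log2 fold change 2.35, SE 0.15, edgeR adjusted p = 0.00678). DSTN-202, from the actin-depolymerizing factor destrin, rose from 88.8 and 93.9 FPKM to 420 and 425 FPKM (2.53, SE 0.11, adjusted p = 0.00529). HNRNPA1-205 rose from 166 and 190 FPKM to 356 and 366 FPKM (1.32, SE 0.12, adjusted p = 0.00888). In si-PLANE.1 these 3 lay between 75.8 and 193 FPKM. TPM4-201 and COX6C-207 rose as well (1.10, SE 0.11, adjusted p = 0.0104, and 0.96, SE 0.16, adjusted p = 0.0232). Their shares of the gene did not pass in POLR2L-202, HNRNPA1-205, TPM4-201 and COX6C-207 (adjusted p for share = 0.762, 0.699, 0.871 and 0.991), and that of DSTN-202 passed narrowly (adjusted p = 0.04995).

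PGD-204, TPM3-207 and EIF3E-215 fell far. PGD-204, from the pentose phosphate enzyme 6-phosphogluconate dehydrogenase, fell from 301 and 294 FPKM in si-ctrl to 14.6 and 15.3 FPKM in si-PLANE.2 (log2 fold change -3.94, SE 0.14, edgeR adjusted p = 0.00529), with 216 and 302 FPKM in si-PLANE.1. The main protein_coding transcript of the gene, PGD-201, was at 787 and 875 FPKM in si-ctrl against 1007 and 1070 FPKM in si-PLANE.2. TPM3-207, from a tropomyosin gene, fell from 140 and 120 FPKM to 6.31 and 14.3 FPKM (-3.38, SE 0.44, adjusted p = 0.0155), while TPM3-220 of the same gene was listed at 0 in the other 4 libraries and at 128 and 127 FPKM in si-PLANE.2. EIF3E-215, from a subunit of the initiation factor eIF3, went from 119 and 266 FPKM to 1.49 and 1.12 FPKM (-6.88, SE 0.59, adjusted p = 0.00873). As counted it is 841 bases long, against 1485 bases in the annotation. RPS3-218, ACTG1-213 and B2M-209 did not pass the test for si-PLANE.2. For si-PLANE.1 none of the 12 passed, with log2 fold changes from -0.50 for POLR2L-202 to 0.67 for TPM4-201. Several of these genes, RPS3, ACTG1, HNRNPA1 and TPM3 among them, have processed pseudogenes, and how the counting split reads between such copies is not given in the sources used here.

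**Figure D3:**
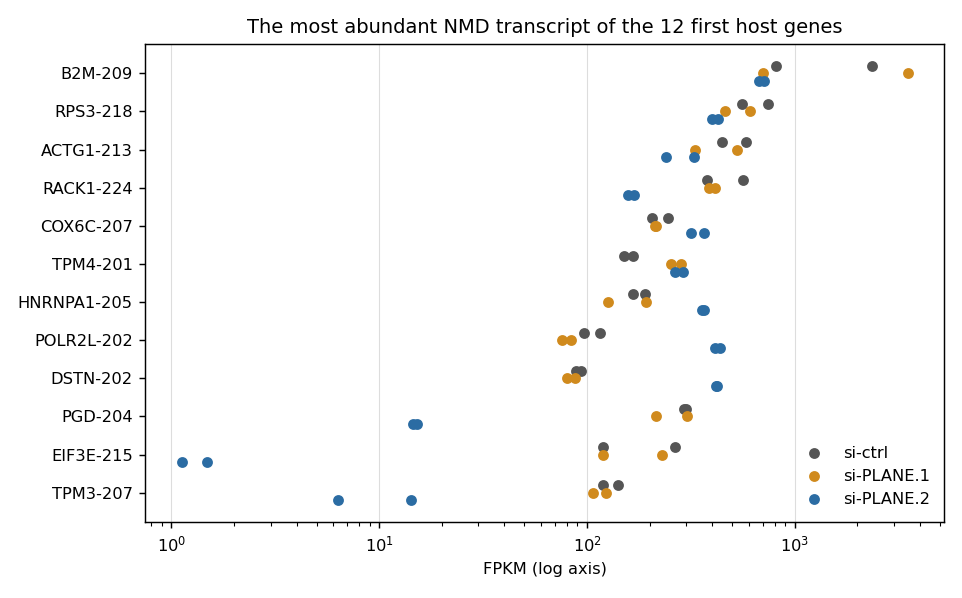
FPKM (x axis, log scale) of the most abundant NMD transcript of the 12 genes that hold most, in each library (points, coloured by group). The si-PLANE.2 points of DSTN-202 and POLR2L-202 lie above those of the other groups, those of PGD-204, EIF3E-215 and TPM3-207 far below, and B2M-209 varies most within si-ctrl and si-PLANE.1.

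For si-PLANE.1 against si-ctrl, no NMD transcript passed the edgeR test of level. Of 3275 tested, 0 were called at an adjusted p under 0.05, as of all 57625 transcripts (0%). At an unadjusted p under 0.05 it called 165, or 5.04%, against 4.43% of all transcripts, and DESeq2 called 30, or 0.916%, against 0.677%. The log2 fold changes had a median of 0.10 (quartiles -0.39 and 0.64) against 0.01 over all transcripts, and 55.5% were above 0 against 50.5%. A test of each transcript against the others of its gene, which reads a change of share within the gene, called 18 of 3211 NMD transcripts (0.561%, against 0.24% of all), 10 higher (0.136% of all) and 8 lower (0.103% of all). On simulated counts this share test called more transcripts of unchanged genes than its adjusted p allows, so single share calls are less certain than their p-values state, also in si-PLANE.2.

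Most of those with a changed share had no counts at all in one of the groups. EIF4A2-203, from a helicase of translation initiation, was listed at 0 in both si-ctrl libraries and at 19.7 and 13.9 FPKM in si-PLANE.1, at least 110-fold higher by a floor of 3 counts a library (adjusted p for share = 0.00012), with 7.72 and 8.76 FPKM in si-PLANE.2. TPM3-208 was at 0 and 0.05 FPKM in si-ctrl against 6.74 and 18.7 FPKM in si-PLANE.1 (adjusted p for share = 1.21e-06), with 4.78 and 2.32 FPKM in si-PLANE.2. GLG1-206, from a Golgi membrane glycoprotein, was at 0 in si-ctrl and at 2.05 and 1.65 FPKM (adjusted p = 0.00029), and SNX27-202, from an endosomal sorting nexin, at 0.01 and 0 against 2.42 and 3.22 FPKM (adjusted p = 0.00166). In these 4 transcripts both si-PLANE.1 libraries lay above both si-ctrl libraries, which follows from their choice by the smallest p for share. They also met the minimum of 0.5 FPKM in this fit only through the si-PLANE.1 libraries, so their folds and p-values are no independent support.

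In the other direction, PTDSS1-201, from phosphatidylserine synthase 1, was at 10.5 and 9.86 FPKM in si-ctrl against 0 in the si-PLANE.1 and si-PLANE.2 libraries, at least 82.5-fold lower in si-PLANE.1 (adjusted p for share = 7.94e-06). MAN2A2-221, from a Golgi mannosidase, was at 3.48 and 3.06 FPKM against 0 and 0 (at least 60.9-fold lower, adjusted p = 0.000866). FLII-220, from an actin-remodelling protein of the gelsolin family, was at 2.43 and 3.10 FPKM against 0 and 0 (at least 41.3-fold lower, adjusted p = 0.00435). SUMF2-211 completed the 4 strongest falls (adjusted p = 0.00817). Among the transcripts with the smallest unadjusted p by level, IFITM10-202 (0 against 2.69 and 1.97 FPKM) and IKBKB-209 (4.45 and 2.36 FPKM against 0) were the others, and none of these levels was called (adjusted p = 0.783 to 0.791). Here too, a transcript at 0 in one of the compared groups met the minimum of this fit only through the other group. Both siRNAs were compared with the same si-ctrl libraries, so the values of those 2 libraries enter both comparisons.

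**Figure D4:**
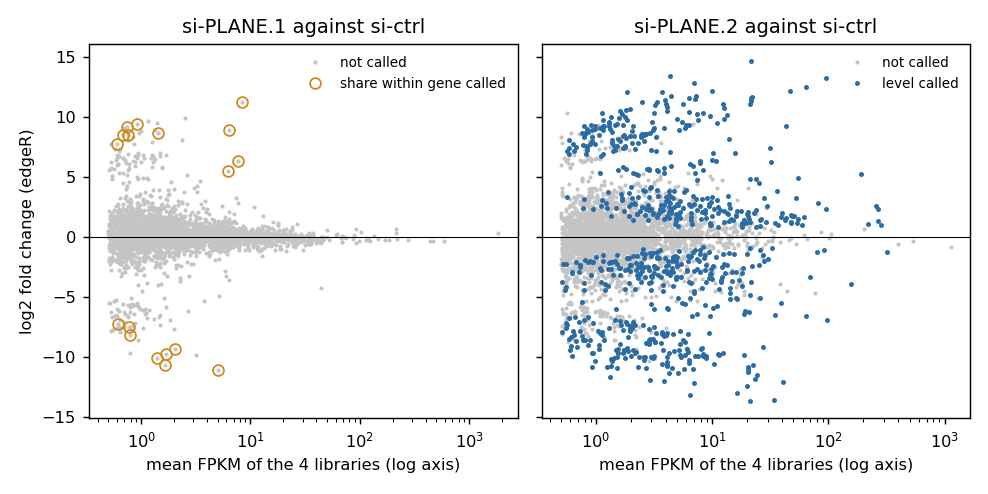
Fitted log2 fold change (y axis) against the mean FPKM of the 4 libraries (x axis, log scale) for the NMD transcripts tested with si-PLANE.1 (left, 3275) and si-PLANE.2 (right, 3339). Filled colour marks the 722 transcripts called by level for si-PLANE.2 and open circles the 18 called by share for si-PLANE.1, and bands far from 0 hold transcripts at or near 0 in one group, whose fitted values depend on the prior count.

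For si-PLANE.2 against si-ctrl, NMD transcripts changed in both directions at close to the rate of all transcripts. By level, edgeR called 722 of 3339 (21.6%), against 25.6% of all 56792 transcripts. Of these 343 (10.3%) were higher and 379 (11.4%) lower, against 12.9% and 12.7% of all. By share within the gene 621 of 3277 (19.0%) were called, against 16.5% of all, 270 (8.24%) higher and 351 (10.7%) lower, against 6.75% and 9.74%. The median log2 fold change in level was 0.02 (quartiles -1.71 and 1.46), against -0.11 over all transcripts. These counts rest on both si-PLANE.2 libraries, for edgeR called 43 NMD transcripts by level without replicate 4 and 0 without replicate 3, and 393 and 379 by share. By the class of stop codon, 90 (24.4%) of 369 transcripts with a shared stop were called, 436 (23.1%) of 1884 with another stop within an exon of a protein_coding transcript, and 196 (18.1%) of 1084 with a stop outside such exons.

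Switches between 0 and a clear level in si-PLANE.2 occurred in NMD transcripts at rates near those of all transcripts. Of the 3718 NMD transcripts, 145 (3.90%) had 0 FPKM in each si-ctrl library and 1 FPKM or more in both si-PLANE.2 libraries, against 3.18% of all transcripts of 0.5 FPKM or more. The reverse held for 177 (4.76%), against 4.8% of all. A transcript at 0 in both other groups met the minimum of 0.5 FPKM only through the si-PLANE.2 libraries. LDHA-218, from lactate dehydrogenase A, was at 0 in si-ctrl and si-PLANE.1 and at 189 and 190 FPKM in si-PLANE.2, at least 371-fold higher than si-ctrl (edgeR adjusted p = 0.00551). SOD2-215, from the mitochondrial superoxide dismutase, was likewise at 0 and then at 45.6 and 40.1 FPKM (at least 980-fold higher, adjusted p = 0.00529). CS-215, from citrate synthase, was at 36.6 and 47.5 FPKM in si-ctrl, at 43.9 and 33.7 FPKM in si-PLANE.1, and at 0 in si-PLANE.2 (at least 579-fold lower, adjusted p = 0.00645). In these 3 the si-PLANE.2 libraries lay apart from si-ctrl, which follows from their choice by the smallest p. Among the other 4 libraries si-ctrl and si-PLANE.1 overlapped.

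Other large rises in si-PLANE.2 started from a low level. UGDH-203, from the enzyme that makes UDP-glucuronate, was at 0.40 and 0.37 FPKM in si-ctrl, at 1.74 and 1.01 FPKM in si-PLANE.1, and at 57.8 and 66.4 FPKM in si-PLANE.2 (adjusted p = 0.00529). A second transcript of lactate dehydrogenase A, LDHA-222, rose from 2.30 and 3.02 FPKM to 47.8 and 48.2 FPKM (log2 fold change 4.47, SE 0.22, edgeR adjusted p = 0.00576), with 9.64 and 8.54 FPKM in si-PLANE.1. By share, the strongest rises besides RACK1-210 and LDHA-218 were TRIO-218, which held 0% of its gene in si-ctrl and 27.9% and 34.8% in si-PLANE.2, and SERF2-208, which went from at most 0.19% to 21.1% and 20.01% (adjusted p = 5.51e-14 and 1.90e-11). TRIO-218 was at 0 FPKM in si-ctrl and si-PLANE.1, and SERF2-208 at 0.32 FPKM or less. Both met the minimum of 0.5 FPKM only through the si-PLANE.2 libraries. SERF2-208 is 700 bases long as counted and 3254 in the annotation, so its counted model may differ. Lengths also differ, counted against annotated, for EIF3E-215 (841 and 1485 bases), SNX27-202 (7070 and 2498) and TPM4-201 (2542 and 2330). The same holds for ACTG1-213 (1720 and 1880 bases), TPM3-207 (2007 and 1933) and TPM3-208 (2063 and 2241). For these the annotated stop codon may not be that of the counted model.

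Further falls were among those with the smallest p. ACADVL-237, from the very-long-chain acyl-CoA dehydrogenase, fell from 124 and 132 FPKM in si-ctrl to 0.93 and 1.23 FPKM (log2 fold change -6.56, SE 0.22, edgeR adjusted p = 0.00529), and from 36.8% and 36.1% of its gene to 0.49% and 0.69% (adjusted p for share = 5.86e-12). It was at 142 and 137 FPKM in si-PLANE.1. LTBR-213, from the lymphotoxin beta receptor, fell from 64.3 and 89.1 FPKM to 1.16 and 1.51 FPKM (-5.47, SE 0.34, adjusted p = 0.00668). MIPOL1-210 fell from 30.7 and 38.0 FPKM to 1.54 and 1.84 FPKM (-4.07, SE 0.19, adjusted p = 0.00558), and U2SURP-203, from a protein of the U2 snRNP, from 15.3 and 15.1 FPKM to 2.46 and 2.36 FPKM (-2.37, SE 0.14, adjusted p = 0.00645). For MIPOL1-210 the share within the gene did not pass (adjusted p = 0.702).

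**Figure D5:**
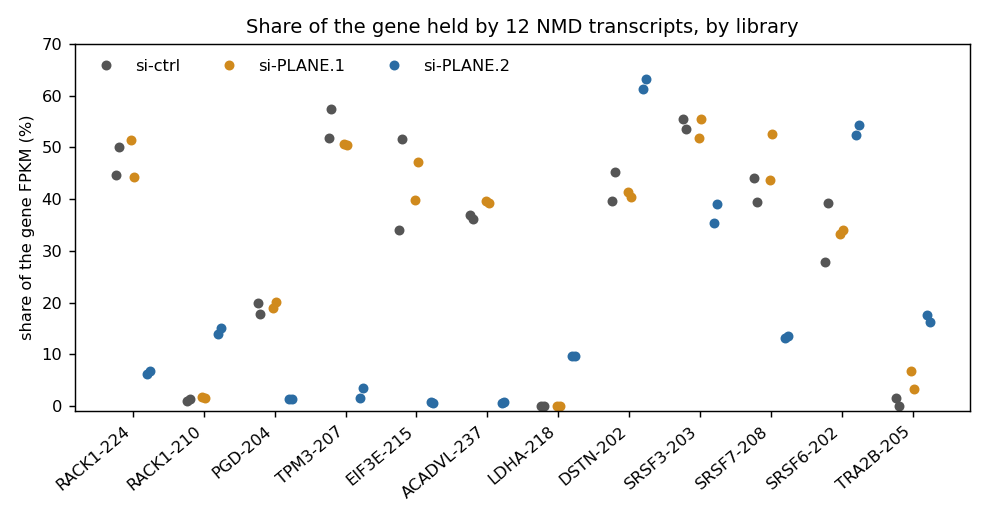
Share of the FPKM of the gene (y axis, %) held by 12 NMD transcripts (x axis) in each library (points, coloured by group). The si-PLANE.2 points fall to 6.75% or less for RACK1-224, PGD-204, TPM3-207, EIF3E-215 and ACADVL-237 and lie above the others for RACK1-210, LDHA-218, DSTN-202, SRSF6-202 and TRA2B-205.

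Splicing regulators, the class for which poison exons are best known, were read as a list. Of 50 such genes 39 had NMD transcripts, 61 in all, which summed to 907 to 1037 FPKM in the 6 libraries and to 15.5% to 18.8% of the FPKM of those 39 genes. The rate over other genes of like level was not computed, so these counts are not read as particular to the class. With si-PLANE.1 none of the 61 transcripts was called by either edgeR test. In si-PLANE.2, 13 of 57 were higher and 4 lower by level, where 12.9% and 12.7% of all transcripts were, and 5 were higher and 8 lower by share, where 6.75% and 9.74% of all were, with a median log2 fold change in level of 0.39 against -0.11 over all transcripts. The SR proteins, which bind exons and recruit the splicing machinery, differed among themselves. SRSF3-203 was at 52.7 and 43.7 FPKM in si-ctrl, at 38.8 and 41.8 FPKM in si-PLANE.1, and at 28.2 and 29.8 FPKM in si-PLANE.2, with 35.3% to 55.5% of the gene (adjusted p = 0.114 by level and 0.104 by share in si-PLANE.2). SRSF6-202 rose from 18.7 and 20.5 FPKM in si-ctrl to 37.5 and 39.6 FPKM in si-PLANE.2 (log2 fold change 1.27, SE 0.13, edgeR adjusted p = 0.0111), with 19.9 and 16.6 FPKM in si-PLANE.1.

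SRSF7-208 was at 16.8 to 24.1 FPKM over the 6 libraries (adjusted p by level = 0.47 in si-PLANE.2), while its share fell from 44.1% and 39.5% in si-ctrl to 13.1% and 13.6% in si-PLANE.2 (adjusted p for share = 0.0208). SRSF1-206 fell from 16.5 and 11.8 FPKM to 1.88 and 1.18 FPKM (-2.89, SE 0.40, adjusted p = 0.0173), and SRSF2-208 rose from 5.90 and 12.3 FPKM to 29.7 and 32.8 FPKM (2.07, SE 0.41, adjusted p = 0.0342). TRA2B-205 was at 1.68 and 0 FPKM in si-ctrl, at 6.03 and 2.42 FPKM in si-PLANE.1, and at 19.1 and 18.7 FPKM in si-PLANE.2, a difference called by share (adjusted p = 0.000145) and not by level (adjusted p = 0.0843). Both si-PLANE.1 libraries and both si-PLANE.2 libraries lay above those of si-ctrl. For si-PLANE.1 neither test called TRA2B-205. Such an order is common, for 18.3% of host genes had a higher NMD share in both si-PLANE.1 libraries than in both si-ctrl libraries. Of the other RNA-binding proteins, HNRNPA2B1-203 rose from 30.4 and 19.1 FPKM to 73.5 and 68.4 FPKM (1.82, SE 0.25, adjusted p = 0.0175) and SF3B1-202, from the U2 snRNP component SF3B1, fell from 112 and 129 FPKM to 39.6 and 38.6 FPKM (-1.27, SE 0.17, adjusted p = 0.0158). DDX5-207 held 66.7% to 79.0% of the RNA helicase gene DDX5 in every library, and FUBP1-201 lay between 24.05 and 26.55 FPKM in all 6.

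Summed over the list, genes of ribosomal and translation proteins gave a small part of their output to NMD transcripts, and less in si-PLANE.2 than in the other groups. Of 154 such genes 40 had NMD transcripts, 59 in all, which held 4.97% and 5.34% of the FPKM of those 40 genes in si-ctrl, 5.58% and 5.56% in si-PLANE.1, and 2.16% and 2.15% in si-PLANE.2. Few genes carried this sum. RPS3 held 559 of 1066 and 749 of 1448 FPKM in si-ctrl, and 452 of 781 and 462 of 754 FPKM in si-PLANE.2. EIF3E went from 119 and 266 FPKM in si-ctrl to 1.49 and 1.12 FPKM in si-PLANE.2. For si-PLANE.2 the NMD transcripts of the list were called higher in 8 and lower in 3 of 56 cases by level, and higher in 4 and lower in 5 by share, where 12.9% and 12.7% of all transcripts were by level and 6.75% and 9.74% by share. At the level of whole genes, where edgeR called 64.1% of all genes tested for si-PLANE.2, 31.8% higher and 32.3% lower, 106 of 149 genes of the list were higher and 15 lower.

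The machinery of NMD itself was read at the gene level, by adding the transcripts of each gene. For si-PLANE.1, edgeR called 0.0344% of all genes and 0 of the 13 core factors, of which 7 had an unadjusted p under 0.05, against 10.4% of all genes, and DESeq2 called 2, against 0.853% of all. With the replicate number as a block, edgeR called 6 core factors and 8.43% of all genes. UPF2, which bridges UPF1 and UPF3, had a log2 fold change of 0.66 (SE 0.11, adjusted p = 0.241), and SMG5, an adaptor that recruits decay enzymes, one of 0.66 (SE 0.15, adjusted p = 0.288). SMG1, also among those 7, went the other way (-0.38, SE 0.13, edgeR adjusted p = 0.416). For si-PLANE.2, 7 core factors were higher and 3 lower, in a comparison that called 64.1% of all genes, 31.8% higher and 32.3% lower, so that counts of 10 of 13 here, and of 6 of 8 and 11 of 14 in the next lists, are read against that rate. The helicase UPF1 rose (1.04, SE 0.10, edgeR adjusted p = 8.55e-05) and so did UPF3A (1.27, SE 0.13, adjusted p = 0.000121), whereas the kinase SMG1, which phosphorylates UPF1, fell by 1.14 on the log2 scale (SE 0.11, adjusted p = 7.82e-05), as did NBAS by 1.21 (SE 0.11, adjusted p = 6.55e-05). Of 8 exon junction complex genes found, 5 were higher, led by MAGOH (1.99, SE 0.21, edgeR adjusted p = 0.000154) and EIF4A3 (1.68, SE 0.10, adjusted p = 1.21e-05), which form its core, and 1 was lower. Of 14 genes of translation termination and mRNA decay 5 were higher and 6 lower, among them the 5′ exonuclease XRN1, lower (log2 fold change -2.004, SE 0.11, adjusted p = 1.05e-05). These calls are on summed counts, and summed FPKM could differ in direction. EDC4 was called higher (0.69, SE 0.10, edgeR adjusted p = 0.000795). Its FPKM went from 39.8 and 29.6 in si-ctrl to 24.7 and 23.2 in si-PLANE.2. For SMG8 and SMG9, also called higher, the FPKM of these groups overlapped.

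Core factors carried few NMD transcripts of their own, 4 in 3 genes. SMG1-213 was at 19.4 and 18.4 FPKM in si-ctrl, at 9.69 and 13.5 FPKM in si-PLANE.1, and at 0.08 and 0 FPKM in si-PLANE.2, where its level was called (edgeR adjusted p = 0.0119). DHX34-202, from an RNA helicase gene, lay between 1.76 and 4.23 FPKM and was not called for either siRNA. The 6 transcripts of exon junction complex genes included ACIN1-206, at 8.34 to 13.0 FPKM in all libraries, and RNPS1-209, at 0 to 8.53 FPKM, with 3 of MAGOHB and 1 of CASC3 at 1.36 FPKM or less. None of those tested was called. The 3 transcripts of termination and decay genes, 2 of PABPC1 and 1 of DCP2, summed to 2.11 to 13.2 FPKM and were not called by level, and DCP2-202 was lower by share in si-PLANE.2 (adjusted p = 0.04).

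Genes known as NMD targets through other features, such as upstream reading frames, were read as a comparison, and 8 of the 14 given were found. For si-PLANE.1 none was called, 4 had an unadjusted p under 0.05 (10.4% of all genes did), and DESeq2 called 1 (0.853% of all). With the replicate number as a block, edgeR called some of them, and 8.43% of all genes. DDIT3, a stress-induced transcription factor, had a log2 fold change of 0.84 (SE 0.23, edgeR adjusted p = 0.341) and ATF4, which activates it, one of 0.53 (SE 0.13, adjusted p = 0.298). GADD45A, also among the 4 with an unadjusted p under 0.05, went the other way (-0.54, SE 0.22, edgeR adjusted p = 0.469). For si-PLANE.2, 6 were higher and 1 lower, against 31.8% and 32.3% of all genes, among them GADD45A (1.49, SE 0.15, adjusted p = 9.85e-05), a growth arrest gene, and ATF3 (1.62, SE 0.21, adjusted p = 0.00038). UPP1 and TBL2 of this list also hold 6 NMD transcripts, of which UPP1-202 rose from 3.38 and 2.22 FPKM in si-ctrl to 11.96 and 13.78 FPKM in si-PLANE.2 (log2 fold change 2.53, SE 0.38, edgeR adjusted p = 0.0203).

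The siRNAs were also set against each other in a fit of all 6 libraries. NMD transcripts in si-PLANE.2 differed from those in si-PLANE.1 in 803 of 3718 cases (21.6%, against 28.6% of all transcripts), 324 (8.71%) higher in si-PLANE.2 and 479 (12.9%) lower, against 12.7% and 15.9% of all. Of the 12 first transcripts, 9 differed. PGD-204 was lower in si-PLANE.2 by 3.62 on the log2 scale (SE 0.22, edgeR adjusted p = 0.00129) and DSTN-202 higher by 2.78 (SE 0.12, adjusted p = 0.00086).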

How the data were processed

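RNA-seq of 6 libraries was read from 2 transcript tables of FPKM and expected counts. The authors deposited the expected counts, estimated per transcript, and the FPKM values made from them, per the file headers. The submitters' processing notes name Trimmomatic 0.30, HISAT2 2.0.1, HTSeq 0.6.1, DESeq and hg19. The tool that estimated the counts and its annotation are not given in the sources used here. Transcript types and stop codons came from GENCODE on GRCh37, which may be a later release than the one counted. The length in the tables equalled the annotated length for 3309 of the 3718 NMD transcripts (89%), and 28800 listed transcripts had no type. A level is an estimated split of reads among overlapping isoforms, and short transcripts weigh more in FPKM than in counts.

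After rounding, the counts went into edgeR 4.0.16 (TMM, quasi-likelihood, R 4.3.3), each siRNA against si-ctrl, over all transcripts with a mean of 0.5 FPKM or more in the 4 libraries, with Benjamini-Hochberg adjustment. Shares within genes were tested with diffSpliceDGE of the same tool, and genes on summed counts. DESeq2 1.42.0 was an alternative, as were other filters, scalings and left-out libraries. The fits were tested on simulated data, where the share test made more false calls than its adjusted p allows. Total shares were compared with an exact permutation test. Libraries held 10572151 to 20778431 expected counts, and the precision of scarce transcripts is limited by this depth.

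Named were the 12 genes that hold most, the transcripts with the smallest p per siRNA and direction (5 by level, 4 by share), the genes with the largest share, and transcripts of NMD factor, exon junction complex and splicing regulator genes. UPP1-202, PGD-201, TPM3-220 and single genes of the target, junction complex and decay lists were chosen after their values were seen. Members and lists were chosen with earlier results of these data known. The labels number only the second PLANE siRNA, and the unnumbered one was taken as si-PLANE.1. The values of some transcripts of the core factor list are not reported here.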

Additional observations from a re-analysis of the deposited data

Results flagged for a closer look

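The si-PLANE.2 and si-PLANE.1 libraries differed, by the contrast si-PLANE.2 minus si-PLANE.1 in a fit of 6 libraries, in 803 of 3718 NMD transcripts. This is 21.6%, against 28.6% of all transcripts. Among the most abundant transcripts of the 12 genes that hold most, edgeR gave 9 with an adjusted p under 0.05. The log2 difference was 2.89 for POLR2L-202 (SE 0.15, adjusted p = 0.00108), 2.78 for DSTN-202 (SE 0.12, adjusted p = 0.00086), 1.60 for HNRNPA1-205 (SE 0.23, adjusted p = 0.00854), 1.16 for COX6C-207 (SE 0.15, adjusted p = 0.0061) and 0.47 for TPM4-201 (SE 0.12, adjusted p = 0.0406). It was -0.87 for RACK1-224 (SE 0.21, adjusted p = 0.0333), -3.08 for TPM3-207 (SE 0.39, adjusted p = 0.00621), -3.62 for PGD-204 (SE 0.22, adjusted p = 0.00129) and -6.61 for EIF3E-215 (SE 0.66, adjusted p = 0.0034). B2M-209, RPS3-218 and ACTG1-213 did not pass (adjusted p = 0.345, 0.784 and 0.674). The siRNA and the preparation of the si-PLANE.2 libraries cannot be told apart in this contrast. With 2 libraries a group, single libraries could not be tested as outliers.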

How the results depend on the processing

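For si-PLANE.1, calls by level were 0 under every alternative except DESeq2, which gave 30, and calls by share were 6 with a minimum of 2 FPKM and 10 to 15 with 1 library left out. For si-PLANE.2, calls by level ranged from 0 (without replicate 3) and 43 (without replicate 4) to 598 with 1 library left out, and calls by share from 379 to 555. Of 33 named calls for si-PLANE.2, 33 held with DESeq2, 0 without replicate 3 and 12 without replicate 4. The difference in total share for si-PLANE.2 was -1.42 percentage points in expected counts and -1.19 as the median over genes. Among gene lists for si-PLANE.1, DESeq2 called 2 core factors, 1 known target and 1 splicing regulator, and 0.853% of all genes. With 1 library left out, si-PLANE.2 calls ranged from 7 to 12 for termination and decay genes and from 21 to 38 for splicing regulators. The cause of these changes was not tested. The rates over all transcripts and genes with 1 library left out are not given here. Those counts are therefore not read as particular to NMD transcripts or to a list.

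With the replicate block, si-PLANE.1 gave 0 calls by level and 13 by share (0.148% of all transcripts), and among genes 6 core factors, 1 decay gene, 4 known targets and 6 splicing regulators, with 8.43% of all genes called. The numbers are shared by 2 pairs only, whose deviations correlated at 0.05 over transcripts, and were not taken as pairs. B2M-209 was higher in replicate 1 than in replicate 2 of both si-ctrl and si-PLANE.1. Without the block, 0.0344% of all genes were called. Whether libraries of one number belong together was not tested beyond that correlation, so gene calls for si-PLANE.1 depend on this choice. The numbers 3 and 4 of si-PLANE.2 are shared with no control, so it has no paired fit. The list block, B2M and shared-stop alternatives were chosen after seeing the data.

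With 1 library left out, the log2 fold change for si-PLANE.1 ranged from -1.23 to 1.26 for B2M-209, -0.59 to 0.0054 for RACK1-224, -0.61 to 0.056 for HNRNPA1-205 and -0.81 to 0.48 for EIF3E-215, and for si-PLANE.2 from -1.41 to 0.093 for B2M-209. None of these was called.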
